A study of Mus musculus with 6 samples.

Results

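To see where enhancer and promoter marks lie at the genes through which B cells speak to T cells, 10 genes of costimulatory and inhibitory ligands were examined in germinal center (GC) B cells. They were listed by name, 10 of the 21864 protein-coding genes of the annotation used: Cd86, Cd80, Icosl, Cd274, Pdcd1lg2, Cd83, Slamf1, Cd84, Ly9 and Slamf6. For each gene, peaks were taken within 5 kb of a transcription start site (TSS) of a protein-coding transcript (promoter), inside the gene but beyond 5 kb of its TSSs (gene body), and from 5 to 50 kb of a TSS (outlying). The question was whether Cd86 differs from its relatives in the array of outlying peaks. Gene body and outlying peaks overlap as classes, because the introns of a long gene lie in both.

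In the GC, B cells in the light zone present antigen to T follicular helper cells, and the outcome of this contact decides between further rounds of selection, exit as memory B cell or plasma cell, and death. CD80 and CD86 are the B7 ligands of CD28, which delivers the costimulatory signal, and of CTLA4, which blocks it. ICOS ligand engages ICOS, PD-L1 (Cd274) and PD-L2 (Pdcd1lg2) engage the inhibitory receptor PD-1, and receptors of the SLAM family bind their own kind on both cells. H3K4me1 is typical of enhancers, where KMT2D is a main writer, and H3K4me3 is typical of promoters.

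The data were Mint-ChIP libraries, a multiplexed chromatin immunoprecipitation for small cell numbers, with 3 libraries for H3K4me1 and 3 for H3K4me3. All came from spleens of WT mice taken 8 days after sheep red blood cells were given, with 50000 sorted cells per library. There was no mutant, untreated or input library among these samples, so the marks are the only groups. In the study, WT stands for mice with the Cγ1-cre allele alone, active in GC B cells,, while the labels of these libraries give only WT, and whether the replicates are separate mice is not given. Mice immunized in the study were young adults by its methods, which do not give the age for these libraries. The labels call the cells GC centrocytes and the study's methods call them GC B cells. Elsewhere in the study centrocytes were gated as CXCR4 low and CD86 high, so a sort on the protein of one of the 10 genes is possible here, and was not tested. An H3K27ac antibody appears in the labels' protocol, whereas titles and antibody labels name the marks used here.

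H3K4me1 lists held 24136, 13923 and 11922 peaks in replicates 1, 2 and 3, and H3K4me3 lists 46707, 41936 and 42862. Outlying H3K4me1 counts of all 10 genes were highest in replicate 1 as well, and the part of library depth in this was not tested. A promoter H3K4me3 peak was found in every library at 5 of 5 B cell and 5 of 5 GC B cell marker genes, at 2 of 5 T cell genes (Cd3d and Lck), at 1 of 5 macrophage or dendritic cell genes (Itgam) and at 5 of 5 plasma cell genes. Over all protein-coding genes the share was 56.2%. In at least 1 library, such a peak was found at 4 of 5 macrophage or dendritic cell genes (Csf1r, Itgam, Itgax and Adgre1) and at the same 2 of 5 T cell genes. Cd3e, Cd4, Cd8a and Lyz2 had no promoter peak of either mark in any library. A list from many cells cannot tell a mark in few cells from a weak mark in many.

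All 10 genes carried a promoter H3K4me3 peak in 3 of 3 libraries, where 56.2% of protein-coding genes did. All 10 also had an outlying H3K4me3 peak in 3 of 3 libraries (64.9% of protein-coding genes), and 9 of 10 had an outlying H3K4me1 peak in 3 of 3 (25.3% of protein-coding genes). Cd84 was the exception, with 4, 1 and 0 outlying H3K4me1 peaks. These counts are per gene, and the peaks of different libraries need not lie at the same site. Only Cd86 and Cd83 had an outlying H3K4me1 region that was itself seen in 3 of 3 libraries. A promoter H3K4me1 peak in 3 of 3 libraries was found at Cd80, Pdcd1lg2, Slamf1 and Slamf6, 4 of 10 genes against 6.17% of all. This number rested on H3K4me1 replicate 3, since Cd86, Cd274, Cd83 and Cd84 had promoter H3K4me1 in replicates 1 and 2 and the count without it was 8, against 11.4% of all genes. The same promoter H3K4me1 region was seen in 3 of 3 libraries at Pdcd1lg2 and Slamf6, and not at Cd80 or Slamf1. In the gene body, H3K4me1 was present in every library at 5 of 10 genes (6.64% of all) and H3K4me3 at 6 of 10 (19.3% of all). The 10 genes include long ones and close neighbours, so these shares are not those of 10 independent loci.

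**Figure D1:**
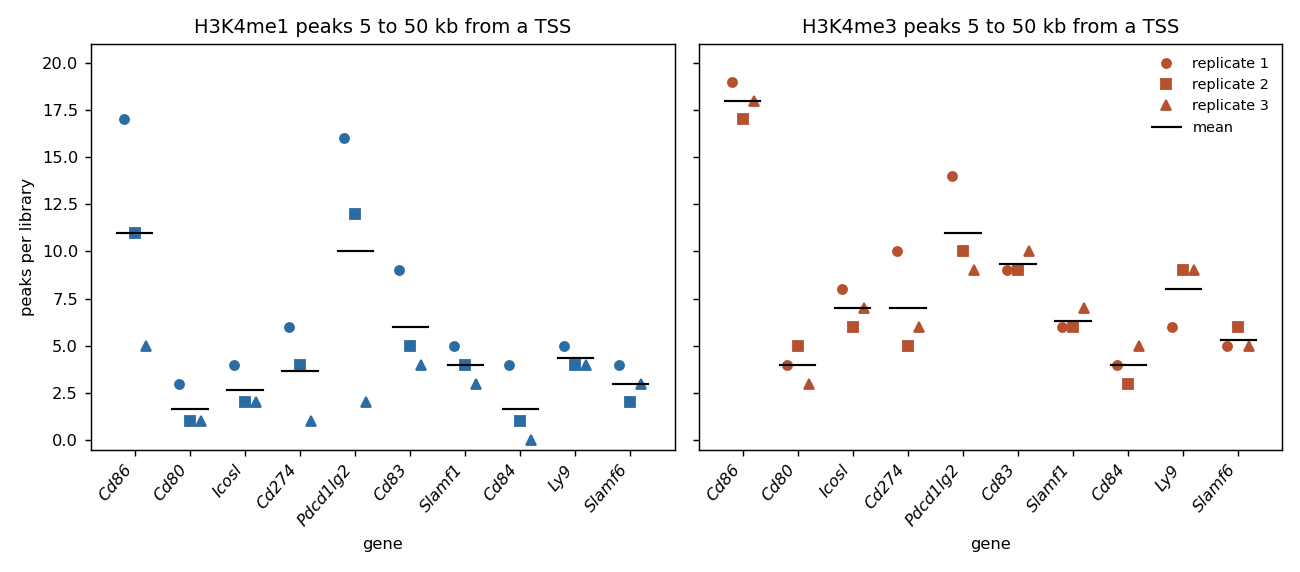
Number of peaks from 5 to 50 kb of a TSS (y axis, peaks per library) for each of the 10 genes (x axis), with H3K4me1 on the left and H3K4me3 on the right; symbols are replicates and horizontal lines are means of 3 libraries. Cd86 sits highest on the right, at 17 to 19 peaks, while on the left Pdcd1lg2 overlaps it.

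Cd86 lies on the minus strand at chr16:36603869-36666081 (GRCm38), spans 62.2 kb, and has 1 coding TSS at 36666077. It had 17, 11 and 5 outlying H3K4me1 peaks in replicates 1, 2 and 3 (11 ± 6, SD, n = 3) and 19, 17 and 18 outlying H3K4me3 peaks (18 ± 1, SD, n = 3). The H3K4me1 libraries were far apart and the H3K4me3 libraries close together. Over all protein-coding genes the median was 1, 0 and 0 outlying H3K4me1 peaks in the same libraries, and 2 H3K4me3 peaks in each. As many outlying H3K4me1 peaks as at Cd86 were found at 0.22%, 0.229% and 2.74% of genes, and as many H3K4me3 peaks at 0.0549%, 0.0732% and 0.0640%. With only the outlying peaks more than 5 kb from any coding TSS, the H3K4me1 shares were 0.316%, 0.238% and 1.46%. The H3K4me3 shares were then higher, at 0.114%, 0.233% and 0.197%. By the mean of 3 libraries, 46 genes stood above Cd86 for H3K4me1 and 8 for H3K4me3.

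The Cd86 array lay on both sides of the TSS. In H3K4me1 replicates 1, 2 and 3, 9, 4 and 3 outlying peaks were downstream, all inside the gene, and 8, 7 and 2 were upstream. Merged over libraries these were 22 regions, of which 15 were seen in 1 library, 4 in 2 and 3 in 3. Of the 22, 18 were more than 5 kb from any coding TSS, and 3 of these were in 3 libraries. Over all H3K4me1 regions more than 5 kb from any coding TSS, 78.5% were seen in 1 library and 4.98% in 3. Most Cd86 sites thus rest on 1 library, as they do elsewhere. For H3K4me3, 12 of 18 outlying Cd86 regions were in 3 of 3 libraries. Of the 15 that were more than 5 kb from any coding TSS, 9 were, against 30.6% of all such H3K4me3 regions. H3K4me3 thus recurred more often than H3K4me1 genome-wide too. Its calls were broad and those of H3K4me1 narrow, and the part of this was not tested.

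Among the Cd86 regions more than 5 kb from any coding TSS, 6 were found in at least 2 H3K4me1 libraries. Counting downstream distances as positive, they were centred at +38.9 kb in intron 2, at +29.3, +24.7, +23.3 and +14.2 kb in intron 1, and at −22.3 kb upstream. The region at −22.3 kb lay 5423 bp from the TSS of the neighbour Ildr1, nearer than to that of Cd86. The 5 intronic ones formed a chain with gaps of at most 10 kb that spanned 25.8 kb, 2 of its regions being present in 3 of 3 libraries. Of all 3849 such chains in the genome, 2.23% held at least as many regions, and 71.3% were single regions. The greatest enrichment was at +38.9 kb, with an authors' fold enrichment of 9.12 and 11.2 in replicates 1 and 2 and 12 and 14 fragments stacked at the summit (recovered on the assumption of a Poisson p-value), and no peak in replicate 3. The region at +14.2 kb had a fold enrichment of 4.81, 10.3 and 7.31 in replicates 1, 2 and 3 (summits of 8, 13 and 9 fragments). The region at +29.3 kb had 7.02, 6.75 and 4.39 (9, 8 and 5 fragments). The upstream region at −22.3 kb had 4.18, 4.50 and 7.31 (7, 5 and 9 fragments), the greatest value being in the library with the fewest peaks. A region without a peak in a library is not shown to be absent there, and the part of depth in this was not tested.

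**Figure D2:**
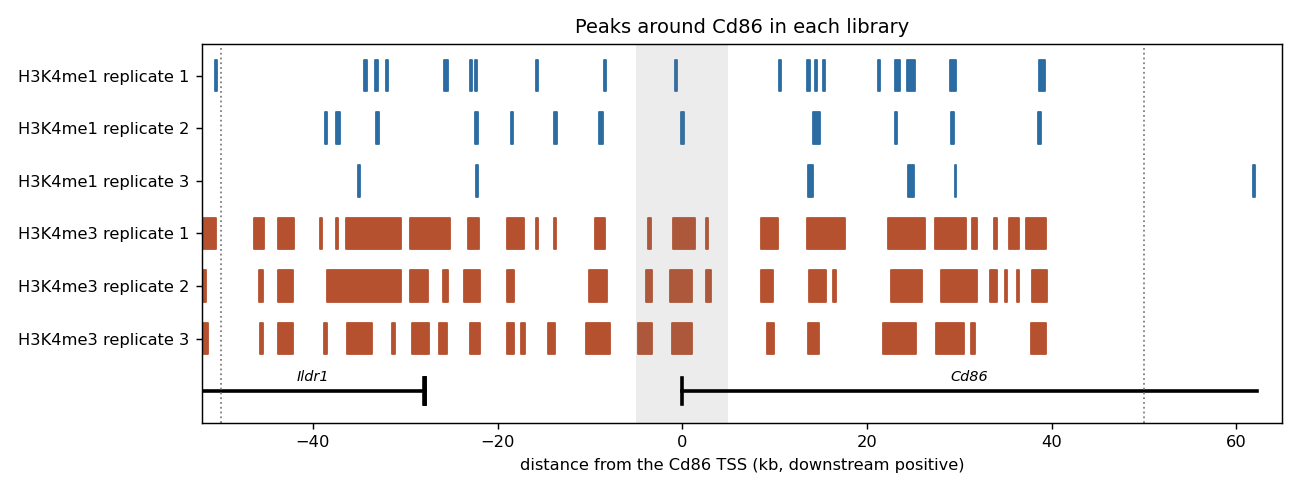
Peaks of each of the 6 libraries (rows) by distance from the Cd86 TSS (x axis, kb, downstream positive); the grey band marks 5 kb to each side, dotted lines the 50 kb limits, and black lines the genes Cd86 and Ildr1 with their TSSs. The H3K4me3 blocks recur in all 3 libraries, while the narrow H3K4me1 peaks recur at few places, among them +14.2, +29.3 and −22.3 kb.

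The 3 regions of the Cd86 window seen in 3 libraries, and the most enriched one (chosen after its values were seen), are shown. Printed are the 300 bases around the greatest summit of each. They are written on the plus strand of GRCm38, from chr16:36627295-36627594, chr16:36636807-36637106, chr16:36651549-36651848 and chr16:36688227-36688526 in that order, and capitals mark matches to the motif letters searched.
Cd86 +38.9 kb: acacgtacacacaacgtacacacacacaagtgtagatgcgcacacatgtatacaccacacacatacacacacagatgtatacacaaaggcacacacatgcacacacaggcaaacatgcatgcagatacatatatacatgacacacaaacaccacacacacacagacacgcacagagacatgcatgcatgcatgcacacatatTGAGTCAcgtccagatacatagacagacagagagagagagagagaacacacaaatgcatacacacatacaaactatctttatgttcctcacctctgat
Cd86 +29.3 kb: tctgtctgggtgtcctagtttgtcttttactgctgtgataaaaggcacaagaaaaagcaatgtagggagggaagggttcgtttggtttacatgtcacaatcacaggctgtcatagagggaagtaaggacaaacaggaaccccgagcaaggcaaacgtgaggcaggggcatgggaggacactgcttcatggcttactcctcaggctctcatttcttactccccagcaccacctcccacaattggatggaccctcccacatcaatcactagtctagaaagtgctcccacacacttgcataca
Cd86 +14.2 kb: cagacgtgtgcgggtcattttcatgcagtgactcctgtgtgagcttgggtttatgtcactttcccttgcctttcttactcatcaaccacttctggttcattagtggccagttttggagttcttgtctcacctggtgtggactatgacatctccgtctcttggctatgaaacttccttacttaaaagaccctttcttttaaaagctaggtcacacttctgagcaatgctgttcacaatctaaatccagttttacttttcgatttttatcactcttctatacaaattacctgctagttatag
Cd86 −22.3 kb: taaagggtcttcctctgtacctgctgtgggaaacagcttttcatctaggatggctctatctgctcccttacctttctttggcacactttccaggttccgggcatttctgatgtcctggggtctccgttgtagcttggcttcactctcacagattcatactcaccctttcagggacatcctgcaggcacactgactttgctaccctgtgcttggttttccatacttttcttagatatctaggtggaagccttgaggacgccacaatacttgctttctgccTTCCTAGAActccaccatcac

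The motifs searched on both strands were PU.1 (GAGGAAGT), the core of the ETS-IRF composite element EICE (GGAANNGAA), AP-1 (TGANTCA), STAT (TTCNNNGAA), kB (GGGANTTCC) and the octamer (ATGCAAAT), where N is any base. The window at +38.9 kb held an AP-1 match, which 10.2% of all 5788 distal H3K4me1 windows of this length did, and the window at −22.3 kb a STAT match (8.52% of windows). The windows at +29.3 and +14.2 kb held none. Tandem runs, of at least 8 bases with 4 or more copies of a unit of at most 4 bases, took up 30.3% of the window at +38.9 kb, and 0.432% of all windows had as much. The windows at +29.3, +14.2 and −22.3 kb had no such run. The genome file marks 92.3% of the bases at +38.9 kb as repeat, against a median of 13% over all windows, so the strongest Cd86 region sits in repetitive sequence, and the part of read placement in its enrichment was not tested.

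To set Cd86 beside its relatives, its outlying count was compared with the median of the other 9 genes within each library. For H3K4me1 Cd86 exceeded that median by 12, 7 and 3 peaks in replicates 1, 2 and 3 (7.33 ± 4.51, SD, n = 3; 3.33 when peaks under 5 in −log10 q-value were left out, 3.67 with nearest TSS only and 4.67 with the 10000 best peaks), and for H3K4me3 by 13, 11 and 11 (11.7 ± 1.15, SD, n = 3). For H3K4me3 no relative reached Cd86 in any library, the nearest being Pdcd1lg2 with 14 and 10 in replicates 1 and 2 and Cd83 with 10 in replicate 3. For H3K4me1 Pdcd1lg2 had 16, 12 and 2 peaks, above Cd86 in replicate 2, so these genes overlapped. The first place of Cd86 depended on the rule for assigning peaks. Given only the peaks nearest to its own TSS, it kept 10, 6 and 3 H3K4me1 peaks and 10, 10 and 7 H3K4me3 peaks, for a mean of 9 against 9.33 at Cd83 for H3K4me3. The peaks lost lie upstream, towards Ildr1, a neighbour transcribed in the opposite direction, whose TSS lies in the Cd86 window. With peaks counted to 100 kb, or from 1 kb, Pdcd1lg2 had more H3K4me1 peaks than Cd86 (15.7 against 13.7, and 11.3 against 11).

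**Figure D3:**
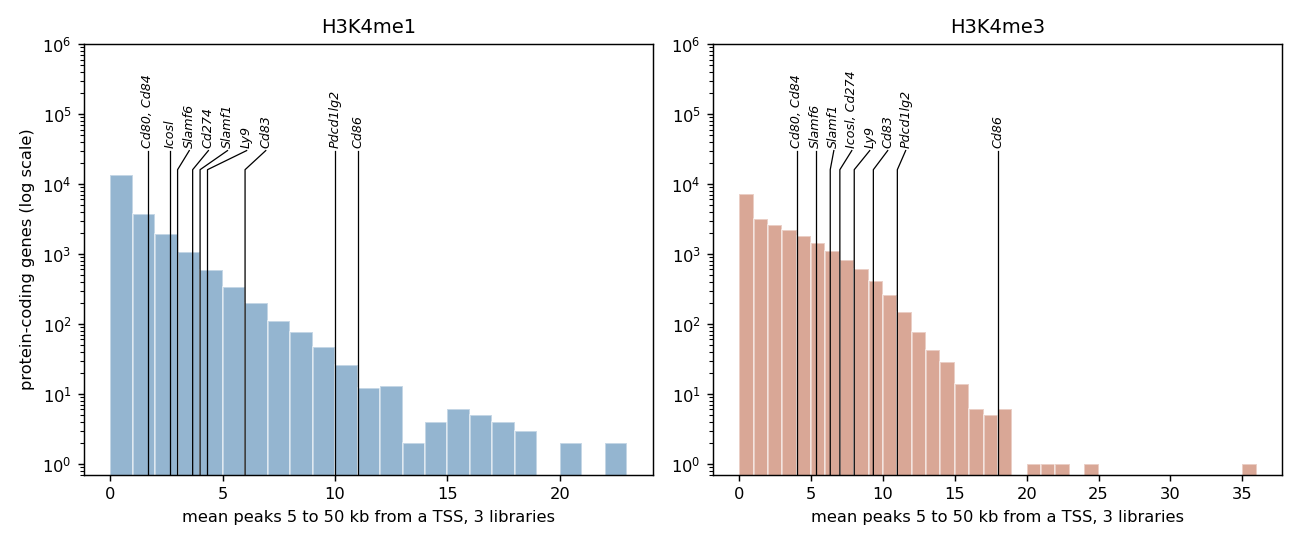
Number of protein-coding genes (y axis, log scale) by mean count of peaks 5 to 50 kb from a TSS over 3 libraries (x axis), for H3K4me1 (left) and H3K4me3 (right); vertical lines mark the 10 genes. Cd86 and Pdcd1lg2 lie in the upper tail for H3K4me1, at means of 11 and 10, and Cd86 stands apart from the other 9 genes for H3K4me3, at 18.

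The contrast between the marks at Cd86 was tested over libraries. Outlying peaks were fewer for H3K4me1 than for H3K4me3 by 7 on average, and the libraries of the marks overlapped at 17 peaks (two-sided exact permutation p = 0.2, n = 3 per mark). Outlying peaks covered 6.50, 3.89 and 1.81 kb in the H3K4me1 libraries and 35.7, 30.4 and 24.4 kb in the H3K4me3 libraries. These did not overlap (4.07 ± 2.35 against 30.2 ± 5.67 kb, SD, n = 3, two-sided exact permutation p = 0.1, the smallest that 20 assignments allow), and both p-values were 0.2 after Benjamini-Hochberg adjustment over the 2 tests. Narrow calls were deposited for H3K4me1 and broad calls for H3K4me3, so the mark and the calling mode cannot be told apart in this contrast. With the 10000 best peaks of each library the difference in number had the opposite sign, at 2. Fewer peaks for H3K4me1 were not particular to Cd86. Over all protein-coding genes, mean outlying peaks per gene were 1.59, 0.884 and 0.770 for H3K4me1 in replicates 1, 2 and 3. For H3K4me3 they were 3.03, 2.75 and 2.83. Whole lists covered 7.91, 4.35 and 3.53 Mb for H3K4me1 and 60.2, 49.4 and 50.7 Mb for H3K4me3.

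Outlying H3K4me1 at Cd86 lay mostly under H3K4me3. Of its H3K4me1 peaks, 15 of 17, 11 of 11 and 5 of 5 in replicates 1, 2 and 3 overlapped an H3K4me3 peak of some library. Over all H3K4me1 peaks more than 5 kb from any coding TSS, 75.6%, 76.9% and 81.1% did. The Cd86 counts are of a wider set, with 3, 1 and 0 peaks within 5 kb of another TSS. Not every H3K4me3 region held H3K4me1. Of the 12 outlying ones in 3 of 3 libraries, 3 had none in any library, at +9.47, −42.9 and −45.8 kb. All 3 were among the 9 of these 12 that lay more than 5 kb from any coding TSS. Such gaps were common. Of all H3K4me3 regions in 3 of 3 libraries and more than 5 kb from any coding TSS, 65.1% overlapped H3K4me1 of some library. At the promoter, H3K4me3 covered the Cd86 TSS in 3 of 3 libraries with a widest peak of 2.37, 2.38 and 2.12 kb. H3K4me1 covered it in replicate 2 alone.

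Cd80, the other B7 ligand, had few outlying H3K4me1 peaks and more at its promoter, while its H3K4me3 peaks were spread over both. It lies on the plus strand at chr16:38455561-38496335 with 3 coding TSSs, and distances at genes with several TSSs are from the nearest of them. Cd80 had 3, 1 and 1 outlying H3K4me1 peaks and 4, 5 and 3 outlying H3K4me3 peaks, and 24.7% and 31.0% of genes had means as high. Its 5 outlying H3K4me1 regions were each seen in 1 library. Its promoter, by contrast, held 5, 3 and 3 H3K4me1 peaks, against 1, 1 and 0 at Cd86, under H3K4me3 peaks of up to 4.75, 6.73 and 3.67 kb. Some of this lies nearest to Adprh, whose TSS is close by. Within the gene, H3K4me3 regions at +17.7 kb (fold enrichment 9.92, 7.28 and 9.47) and +24.6 kb (8.61, 8.10 and 7.67) recurred in 3 of 3 libraries. H3K4me1 was found in 1 library at the first of them and in none at the second.

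Icosl, which encodes ICOS ligand and is on the plus strand at chr10:78069302-78083913, had no promoter or gene body H3K4me1 peak in any library. Its outlying H3K4me1 peaks numbered 4, 2 and 2, and all lay downstream, beyond the end of the gene, between +18.3 and +38.1 kb. Of the 7 regions they form, the one at +18.3 kb was seen in 2 libraries and the others in 1. H3K4me3 followed, with 8, 6 and 7 outlying peaks, of which 6, 5 and 5 were downstream. The promoter H3K4me3 peak was single in each library and measured 1.05, 2.32 and 2.05 kb, and in 1 of 3 libraries it covered the TSS. Both marks thus lay mainly behind the gene.

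The PD-1 ligand genes Cd274 (chr19:29367455-29388095) and Pdcd1lg2 (chr19:29410919-29471161) are neighbours on the plus strand, and their windows share peaks. Cd274 had 5, 4 and 0 promoter and 6, 4 and 1 outlying H3K4me1 peaks, so replicate 3 was low for both. Some of the promoter H3K4me1 lies nearest to Plgrkt, whose TSS is close by. The widest promoter H3K4me3 peak of Cd274 was 3.10, 6.12 and 9.24 kb, the greatest spread of the 10 genes (6.16 ± 3.07 kb, SD, n = 3). Pdcd1lg2 had 16, 12 and 2 outlying H3K4me1 peaks (10 on average) and 14, 10 and 9 H3K4me3 peaks (11 on average). Of its H3K4me1 peaks, 5 and 4 in replicates 1 and 2 lay at the Cd274 promoter and 4, 3 and 1 were outlying peaks of Cd274 too. Nearest to Pdcd1lg2 itself were 7, 6 and 1. Inside Pdcd1lg2, regions at +10.3, +20.1, +20.8, +32.2 and +34.8 kb from its second TSS were each seen in 2 libraries, and no outlying region of the gene was seen in 3. Those at +10.3, +20.1 and +20.8 kb formed a chain of 3 regions over 10.9 kb, and 11.2% of all chains held at least as many.

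Pdcd1lg2 was also marked at one of its 2 annotated starts. H3K4me3 covered the TSS at 29422059 in 3 of 3 libraries and the one at 29410919 in 0 of 3. The H3K4me1 region seen in 3 of 3 libraries lay at −3.54 kb from the second TSS in intron 1, with a fold enrichment of 5.75, 5.25 and 4.39, and an H3K4me3 region overlapped it in 3 of 3 libraries.

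**Figure D4:**
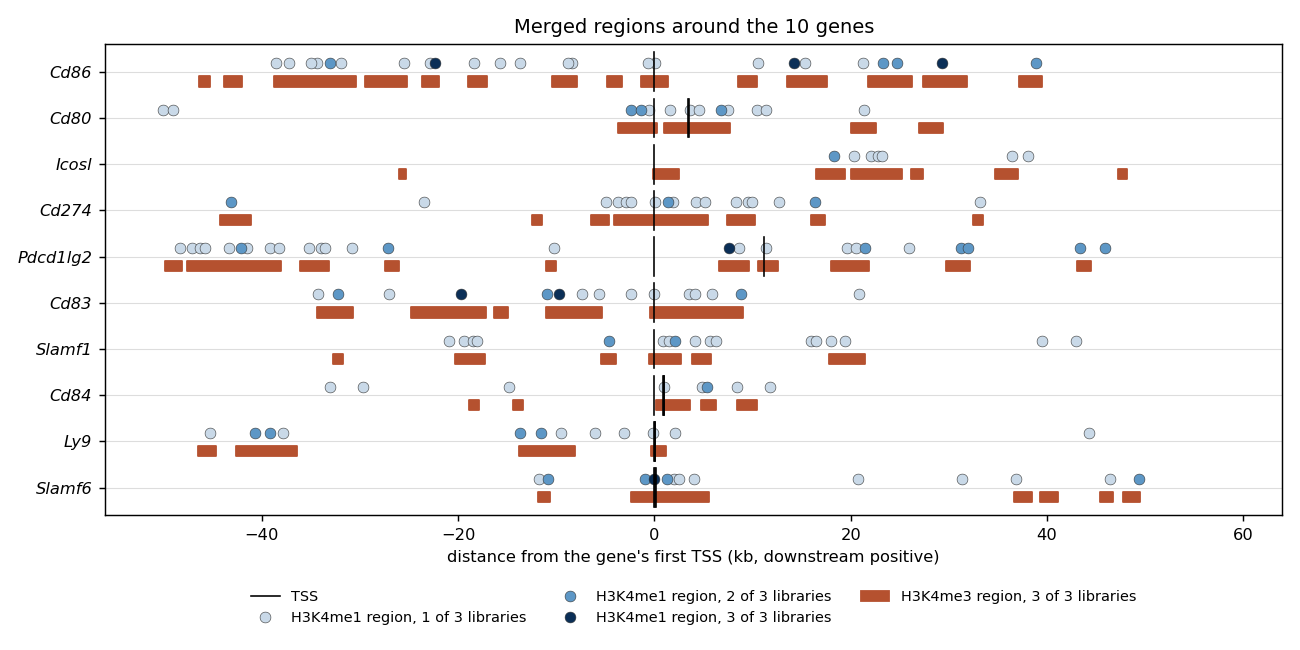
Merged regions around the 10 genes (rows) by distance from the gene's first TSS (x axis, kb, downstream positive); circles are H3K4me1 regions shaded by the number of libraries that hold them, brown-red bars are H3K4me3 regions of 3 of 3 libraries drawn to width, and vertical ticks are TSSs, while distances in the text are from the nearest TSS of the gene. H3K4me1 regions of 3 of 3 libraries appear at Cd86, Cd83, Pdcd1lg2 and Slamf6.

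Cd83, a surface protein of activated B cells and dendritic cells that stabilises MHC class II and CD86 on the surface, lies on the plus strand at chr13:43784775-43803132. It had 9, 5 and 4 outlying H3K4me1 peaks and 9, 9 and 10 H3K4me3 peaks. All were nearest to Cd83 itself, and 8, 4 and 2 of the H3K4me1 peaks were upstream. The region at −19.8 kb was the most enriched outlying site of the 10 genes in replicates 1 and 2, with a fold enrichment of 13, 12.7 and 5.19 and summits of 15, 16 and 9 fragments. A second region in 3 of 3 libraries lay at −9.74 kb, with 7.55, 6.75 and 4.79. With the region at −10.9 kb, seen in 2 libraries, they formed a chain of 3 over 10.5 kb, equal in number to that of Pdcd1lg2 but with 2 of its regions in 3 of 3 libraries, as in the Cd86 chain. Cd83 and Cd86 were the genes of this list with an outlying H3K4me1 region in 3 of 3 libraries. The promoter H3K4me3 peak of Cd83 was the widest of the 10 genes in each library, at 6.87, 8.09 and 9.34 kb (8.10 ± 1.23 kb, SD, n = 3), with Cd274 next to it in replicate 3, and 2.03%, 0.741% and 0.356% of genes with a promoter H3K4me3 peak had one as wide.

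The 300 bases around the summit of the −19.8 kb region, plus strand of chr13:43764812-43765111, are shown for comparison with Cd86; this window was chosen after its values were seen. The capitals mark an EICE core match, which 11.9% of distal windows held.
Cd83 −19.8 kb: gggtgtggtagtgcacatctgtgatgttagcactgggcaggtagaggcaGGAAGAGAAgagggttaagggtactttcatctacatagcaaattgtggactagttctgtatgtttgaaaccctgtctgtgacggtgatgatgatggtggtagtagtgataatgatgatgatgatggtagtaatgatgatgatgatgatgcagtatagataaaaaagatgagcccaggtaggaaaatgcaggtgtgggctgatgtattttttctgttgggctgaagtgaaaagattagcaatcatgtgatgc

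Repeated gat units can be read in its middle, and short tandem runs took up 11% of its bases (4.15% of windows had as much). The genome file marks 42.0% of its bases as repeat, and 11.6% of windows had as much. The part of read placement in its enrichment was not tested.

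**Figure D5:**
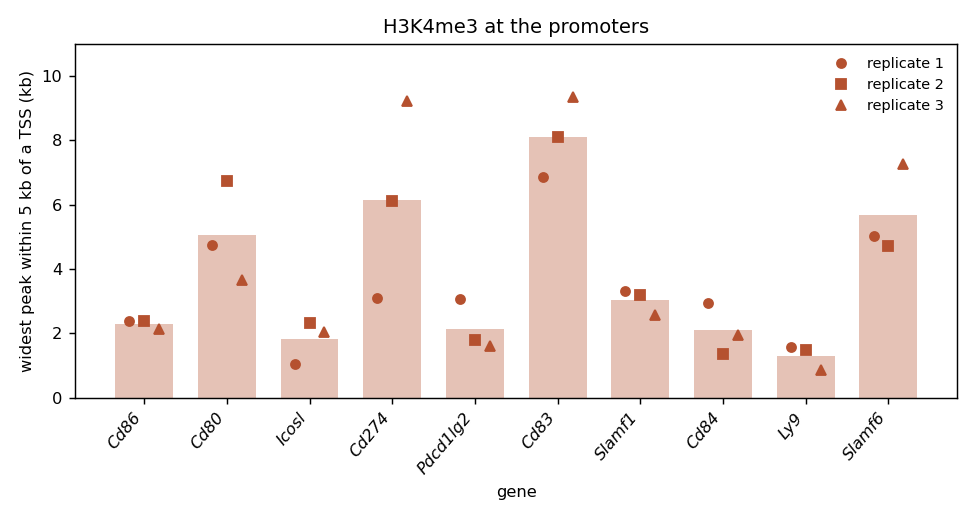
Width of the widest H3K4me3 peak within 5 kb of a TSS (y axis, kb) for each of the 10 genes (x axis); bars are means of 3 libraries and symbols are replicates. Cd83 is the highest bar at 8.10 kb and Ly9 the lowest at 1.31 kb.

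The 4 SLAM family genes lie in one stretch of chromosome 1 with Cd48, Slamf7 and Cd244a between or beside them: Ly9 (chr1:171588624-171607410, minus strand), Slamf1 (chr1:171767127-171801184), Cd84 (chr1:171839697-171890718) and Slamf6 (chr1:171917515-171953170), the last 3 on the plus strand. Their receptors signal through the adaptor SAP and steady the contact between B and T cells. Outlying H3K4me1 peaks numbered 5, 4 and 3 at Slamf1, 4, 1 and 0 at Cd84, 5, 4 and 4 at Ly9 and 4, 2 and 3 at Slamf6. Outlying H3K4me3 peaks numbered 6, 6 and 7 at Slamf1, 4, 3 and 5 at Cd84, 6, 9 and 9 at Ly9 and 5, 6 and 5 at Slamf6. All were below Cd86 in the same library, and Slamf1 and Cd84 shared 2 H3K4me1 peaks in replicate 1.

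Within the family the genes differed in where H3K4me1 recurred. At Ly9, 3, 3 and 1 of the outlying H3K4me1 peaks lay within 5 kb of another TSS, and the regions at −39.2 and −40.7 kb are at Slamf7. Slamf1 had 12 outlying H3K4me1 regions, each in 1 library, and Cd84 had 5 of that kind. At Slamf6 the recurrent H3K4me1 was at the start itself, in a region over the TSS with a fold enrichment of 4.21, 7.5 and 5.85 (5, 9 and 7 fragments). It was the one gene of the 10 with H3K4me1 over a TSS in 3 of 3 libraries, and it lay within a promoter H3K4me3 peak of 5.03, 4.70 and 7.26 kb.

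Promoter stretches from RefSeq (GRCm38.p6) were held for 7 of the 10 genes, and not for Cd86, Cd83 and Ly9. Slamf6, with H3K4me1 over its start in every library, and Icosl, with none within 5 kb, are shown as the extremes, from 250 to 71 bases before the RefSeq start on the plus strand (chr1:171917212-171917391 and chr10:78069118-78069297).
Slamf6 promoter: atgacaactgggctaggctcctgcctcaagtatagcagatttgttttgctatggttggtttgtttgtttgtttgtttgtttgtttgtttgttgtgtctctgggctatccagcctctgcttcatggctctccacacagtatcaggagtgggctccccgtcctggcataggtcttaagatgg
Icosl promoter: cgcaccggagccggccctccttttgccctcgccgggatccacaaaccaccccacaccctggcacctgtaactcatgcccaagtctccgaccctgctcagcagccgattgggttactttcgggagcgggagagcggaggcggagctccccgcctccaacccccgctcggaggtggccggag

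None of the 6 motifs was found in either stretch, and over 32851 promoter stretches of this length the shares with a match ran from 0.858% for kB to 5.26% for STAT. The stretches differed in base composition, with 47.2% G and C at Slamf6 and 68.3% at Icosl.

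Over all 10 genes, 22 distal H3K4me1 regions were seen in at least 2 libraries. An EICE core match was present in 5 of 22 windows and an AP-1 match in 5 of 22, where 11.9% and 10.2% of all windows held one. A STAT match was present in 1 of 22 and an octamer match in 1 of 22, against 8.52% and 3.68% of all windows. No window of the 22 held a PU.1 or kB match, which 5.84% and 1.24% of all windows did. The EICE core matches were at Cd83, Pdcd1lg2, Ly9 and Slamf6, and Cd86 had 0 of 6. A match is a description of letters only.

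Of 19 further ligands and surface partners, 17 had a promoter H3K4me3 peak and 12 an outlying H3K4me1 peak in 3 of 3 libraries. Of 8 receptor genes of the T cell side, 4 had promoter H3K4me3 in 3 of 3 libraries (Ctla4, Pdcd1, Havcr2 and Tigit) and 5 had outlying H3K4me1, while Cd28, Icos, Cd40lg and Cd226 had no promoter peak of either mark. These counts stand beside 56.2% and 25.3% of all protein-coding genes, and a difference between the lists was not tested. The SLAM adaptor gene Sh2d1a, which encodes SAP, had no promoter peak of either mark either. Among these context genes the means of outlying H3K4me1 were greatest at Cd47 (14, 7 and 1 peaks), Slamf7 (10, 3 and 8), Fyn (11, 5 and 2), Icam1 (10, 4 and 2) and Ctla4 (9, 4 and 3). Tnfrsf14 (7, 3 and 2) and Cd48 (5, 3 and 3) came next. None had a mean above those of Cd86 or Pdcd1lg2.

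By the summed absolute difference of log2(1 + outlying peaks) over the 6 libraries, the genes most like Cd86 outside its own window were Cxcr5 (1.23), Pitpnc1 (1.37), Chd9 (1.47), Btnl2 (1.48) and Tctn1 (1.61). Cxcr5, the receptor that draws B cells into follicles, had 16, 9 and 7 H3K4me1 and 20, 19 and 15 H3K4me3 peaks. Of the 9 relatives, Pdcd1lg2 (3.25) and Cd83 (4.75) were nearest to Cd86, with 110 and 361 genes nearer, and Cd84 (12.9) was farthest. This is a likeness of counts only.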

How the data were processed

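Mint-ChIP was made on 50000 sorted cells per library, 3 libraries per antibody. Peaks were called by the authors library by library, as narrow peaks for H3K4me1 and broad peaks for H3K4me3, and per the labels the build was mm10 and the processing notes name BWA, Picard, HOMER and Genrich, with no roles or versions. The deposited fold enrichment is a linear ratio, with −log10 p-value and −log10 q-value columns, in the layout of MACS2, which those notes do not name. Reading the ratio as pileup over local background assumes that caller. All peaks passing the authors' threshold were used, with coordinates read as GRCm38: 0 peaks lay past a chromosome end. Read totals were not analysed here, and 11 peaks lay outside the named chromosomes of the genome file.

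Genes and 41451 TSSs of protein-coding transcripts came from the GENCODE vM21 basic annotation, and intron numbers from each gene's coding transcript with the most exons. A peak's distance is that of its nearest edge to a TSS. Peaks of a mark were merged over libraries where they shared at least 1 bp. Summit fragments of narrow peaks were recovered from fold enrichment and p-value under the Poisson model of MACS2, an assumption, with a tolerance of 0.0005 (whole fragments for 199 of 199 peaks). Scripts used Python 3.11.15, numpy 2.4.6, scipy 1.17.1 and samtools 1.23.1, and peak assignment was tested on simulated data. The 10 genes were named by a list, context genes by their mean outlying H3K4me1 among those marked in every library, and likeness to Cd86 by the 5 nearest genes. Members and lists were chosen with earlier results of these data known, so no p-value over genes is given. Alternatives changed the q-value limit, the number of peaks, the distances, merging, the assignment to the nearest TSS and the libraries included. The 2 contrasts between marks used two-sided exact permutation tests. Nothing in the labels says that replicates came from separate mice, so p-values measure the spread between these libraries, which may be technical.

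Replicate numbers are shared between the marks. Deviations from the mark means of outlying covered length over genes correlated at 0.137, 0.037 and 0.037 for same-numbered libraries. For libraries of different number the values ran from −0.097 to 0.063. The limit of 0.1 set for every pair was not reached by all. Values this small cannot tell whether libraries of the same number share cells, so the pairing is unknown.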

Additional observations from a re-analysis of the deposited data

How the results depend on the processing

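Of 125 recomputed values, 103 stayed within the spread or the side of the threshold, 21 moved and 1 changed sign, which was the difference in Cd86 outlying peaks between the marks (−7, and 2 with the 10000 best peaks). For the 2 contrasts between marks the side of 0.05 was fixed in advance, as no setting can reach it. The spread of Cd86 H3K4me1 peaks was wide (11 ± 6, SD), so 6.33 with the nearest TSS only counted as unmoved. The tally is therefore no measure of robustness. Mean Cd86 H3K4me1 peaks were 3.67 at a −log10 q-value of at least 5, and covered length was 1.51 kb there. Mean Cd86 H3K4me3 peaks were 6.67 at that q-value, 5 with the 10000 best peaks, 19.7 with a promoter distance of 1 kb, 22.3 with an outer limit of 100 kb, 15.0 with peaks within 1 kb merged and 9 with the nearest TSS only. Cd86 minus the median of relatives for H3K4me3 was 4.33, 4, 8, 9 and 4.33 under the q-value, best-peak, 100 kb, merging and nearest-TSS settings, and for H3K4me1 it ranged from 3.33 to 6.33 over the alternatives with all libraries. With the 10000 best peaks, promoter, outlying and gene body H3K4me3 in every library were found at 6, 6 and 3 of 10 genes, against 23.8%, 35.4% and 4.31% of all protein-coding genes. At the stricter q-value, promoter, outlying and gene body H3K4me1 were found at 0, 3 and 2 (0.503%, 3.82% and 1.41% of all), and promoter H3K4me1 at 1 gene with a promoter distance of 1 kb (1.49% of all). Leaving out each replicate in turn gave 4 to 8 genes with promoter H3K4me1, 8 to 14 Cd86 H3K4me1 peaks and 17.5 to 18.5 H3K4me3 peaks. With the replicate block, the exact sign-flip p was 0.25 for both contrasts (−7 peaks and −26.1 kb), the smallest that 3 pairs allow, and it changed no call. A contrast of 3 against 3 libraries cannot reach 0.05, and the part of depth in how often H3K4me1 regions recur was not tested. The cause of these shifts was not tested beyond the construction of each setting, which counts fewer or more peaks.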

Other observations

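The recurrent distal H3K4me1 windows of the 10 genes differed in repeat content, a property chosen for study after the values were seen. Short tandem runs took up 32.3% of the window at −10.9 kb of Cd83, seen in 2 libraries, and 30.3% of that at +38.9 kb of Cd86, while 1.21% of all distal windows exceeded 20%. The windows at +14.2 and −22.3 kb of Cd86 had no base marked as repeat. At Slamf6 the window at −10.9 kb, seen in 2 libraries, had 96.7% of its bases marked as repeat, and at Pdcd1lg2 the window at +20.1 kb had 89%.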
